A study of Caenorhabditis elegans with 6 samples.

Results

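Glutathione transferases and antioxidant enzymes were followed through 6 RNA sequencing libraries of cells sorted from cultured embryos of the nematode Caenorhabditis elegans. The members were taken by name, not by level: every gene whose first name in the table is gst, gsto, sod, ctl, prdx, trx, gpx or gcs with a number, plus skn-1. This gave 73 of the 47063 genes in the table: 44 gst, 3 gsto, 5 sod, 3 ctl, 3 prdx, 5 trx, 8 gpx, gcs-1 and skn-1. The libraries form 3 groups of 2. BAG neurons of strain FQ705 carry the mutation pmk-3(wz31), in a p38 MAP kinase gene, and the reporter wzIs113[Pgcy-9::GFP], in which the gcy-9 promoter drives green fluorescent protein in BAG, a pair of gas-sensing neurons of the head. BAG neurons of strain FQ424 carry the same reporter and wild-type pmk-3. Non-BAG cells are the non-fluorescent cells of strain FQ424, a mixture of other embryonic cells. All were sorted by flow cytometry 24 hours after the embryos were taken apart, so every group had been through dissociation, overnight culture and sorting. The design text calls the pair of libraries in each group biological replicates, without saying whether each had its own culture, so p-values cover only the spread within these pairs, which may be partly technical.

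Glutathione is the small thiol that buffers cells against oxidants. The product of gcs-1 makes its precursor, glutathione transferases (gst, and the omega class gsto) attach it to reactive compounds, and glutathione peroxidases (gpx) are named for using it to reduce peroxides. Superoxide dismutases (sod) turn superoxide into hydrogen peroxide, which catalases (ctl) and peroxiredoxins (prdx) remove, and thioredoxins (trx) return oxidised thiols to their reduced state. SKN-1, a relative of the mammalian Nrf factors, is the transcription factor best known in worms for inducing such genes, with gcs-1, gst-4 and gst-10 among its classical targets in the intestine, where the p38 kinase PMK-1 acts on it.

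The libraries held 6402074 and 6456296 reads in mutant BAG, 7592477 and 8596169 in wild-type BAG, and 6181113 and 8514846 in non-BAG. The pmk-3 transcript stood at 259.8 and 284 in mutant BAG, 671 and 585 in wild-type BAG and 404 and 553 in non-BAG. Mutant over wild-type BAG gave -1.2 ± 0.28 for pmk-3 (limma adjusted p = 0.0784). The labels do not state what wz31 does to the transcript, so this is only a partial check of them. The sorted cells carried the markers of BAG: all 11 listed markers rose in both kinds of BAG neuron over non-BAG cells. They summed to 66252 and 78921 in mutant BAG and 64318 and 62506 in wild-type BAG, against 1616 and 1076 in non-BAG. Much of the BAG sums was gcy-9, at 35897 and 45158 in mutant BAG and 32105 and 38516 in wild-type BAG. Its promoter drives the reporter used for sorting, so its part is no independent check of the sort. Of the 8 pan-neuronal markers 7 rose and 0 fell in each kind of BAG neuron over non-BAG cells. In wild-type BAG the exception was snb-1 (0.72 ± 0.26, limma adjusted p = 0.0991), at 2965 and 3415 in non-BAG. The 8 markers summed to 49730 and 60970 in mutant BAG and 30877 and 29611 in wild-type BAG, against 5554 and 5607 in non-BAG. Of the 8 body wall muscle markers, 7 fell and unc-54 rose in both kinds of BAG neuron over non-BAG cells. Their median change was -2.16 in mutant BAG over non-BAG and -2.19 in wild-type BAG over non-BAG. With unc-54 included they summed to 45702 and 50332 in mutant BAG, 40004 and 36777 in wild-type BAG and 22210 and 17831 in non-BAG. Most of the BAG sums was unc-54 alone, at 41712 and 46587 in mutant BAG and 36218 and 33253 in wild-type BAG, against 7237 and 6443 in non-BAG. The 3 coelomocyte markers fell in both, with sums of 23.7 and 34.5 in mutant BAG, 30.1 and 63.9 in wild-type BAG and 390 and 250 in non-BAG. Intestine, where many gst genes are known to act, was almost unrepresented. Its 10 markers summed to 29.1 and 47.1 in mutant BAG, 40.2 and 64.6 in wild-type BAG and 52.0 and 117 in non-BAG. Of them elt-2 and asp-1 were at 0 in wild-type BAG, ges-1 and elt-7 at 0 in mutant BAG, and none at 0 in non-BAG. In bulk samples like these, fewer cells of a type and less RNA per cell cannot be told apart. Levels are normalized read counts, and changes are log2 changes ± SE of log2(value + 1) in limma, with Benjamini-Hochberg adjusted p over 14211 genes and 0.05 as the threshold.

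Wild-type BAG neurons differed from non-BAG cells in 5 members. The peroxidase gene gpx-2 and the transferase genes gst-31, gst-39 and gst-11 rose, and the peroxidase gene gpx-5 fell. Thus 4 of the 44 tested members rose and 1 fell, while 10.2% of all genes tested rose and 4.01% fell, so the members did not stand out from the background. The median change of the 44 members was 0.26, against -0.04 over all genes tested. With 1 library left out the number that rose lay between 3 and 5. The fall of gpx-5 was lost without any 1 library other than wild-type BAG replicate 1; without wild-type BAG replicate 2 a different gene, gst-20, was called lower.

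Mutant BAG neurons differed from wild-type BAG neurons in no member by limma, where 0.486% of all genes tested rose and 0.352% fell. The unadjusted p was under 0.05 for 10 of the 44 members, and for 2261 of the 14211 genes. The nearest to the threshold were gst-36, at higher values in the mutant, and skn-1, at lower values. On the recovered reads edgeR called gst-36 higher and none lower, and DESeq2 called gst-36 higher and skn-1 lower. Over all genes tested edgeR called 118 higher and 42 lower, and DESeq2 called 377 and 312, against 69 and 50 by limma. The calls of members by DESeq2 therefore did not stand out from its background. With non-BAG replicate 1 or with non-BAG replicate 2 left out, limma called many more genes in both directions. Among them were gst-36, higher, and skn-1, lower. The median change of the members was 0.01, against 0.02 over all genes tested.

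Mutant BAG neurons set against the same non-BAG libraries gave 7 members that rose, gpx-2, prdx-2, gst-11, gst-31, gst-36, gst-39 and gst-40, and 1 that fell, gpx-8. Over all genes tested 16.2% rose and 9.34% fell. The members' median change was 0.27, against -0.09 over all genes tested. The count of rises was 4 without mutant BAG replicate 1 and 2 without mutant BAG replicate 2, and the fall was lost without either of those and without non-BAG replicate 2. The comparisons with non-BAG cells share the non-BAG libraries and are not independent of each other. The filter of a value of at least 10 in 2 libraries was passed by 44 of the 73 members; ctl-2 and gst-36 passed it only through mutant BAG and gpx-8 only through non-BAG.

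**Figure D1:**
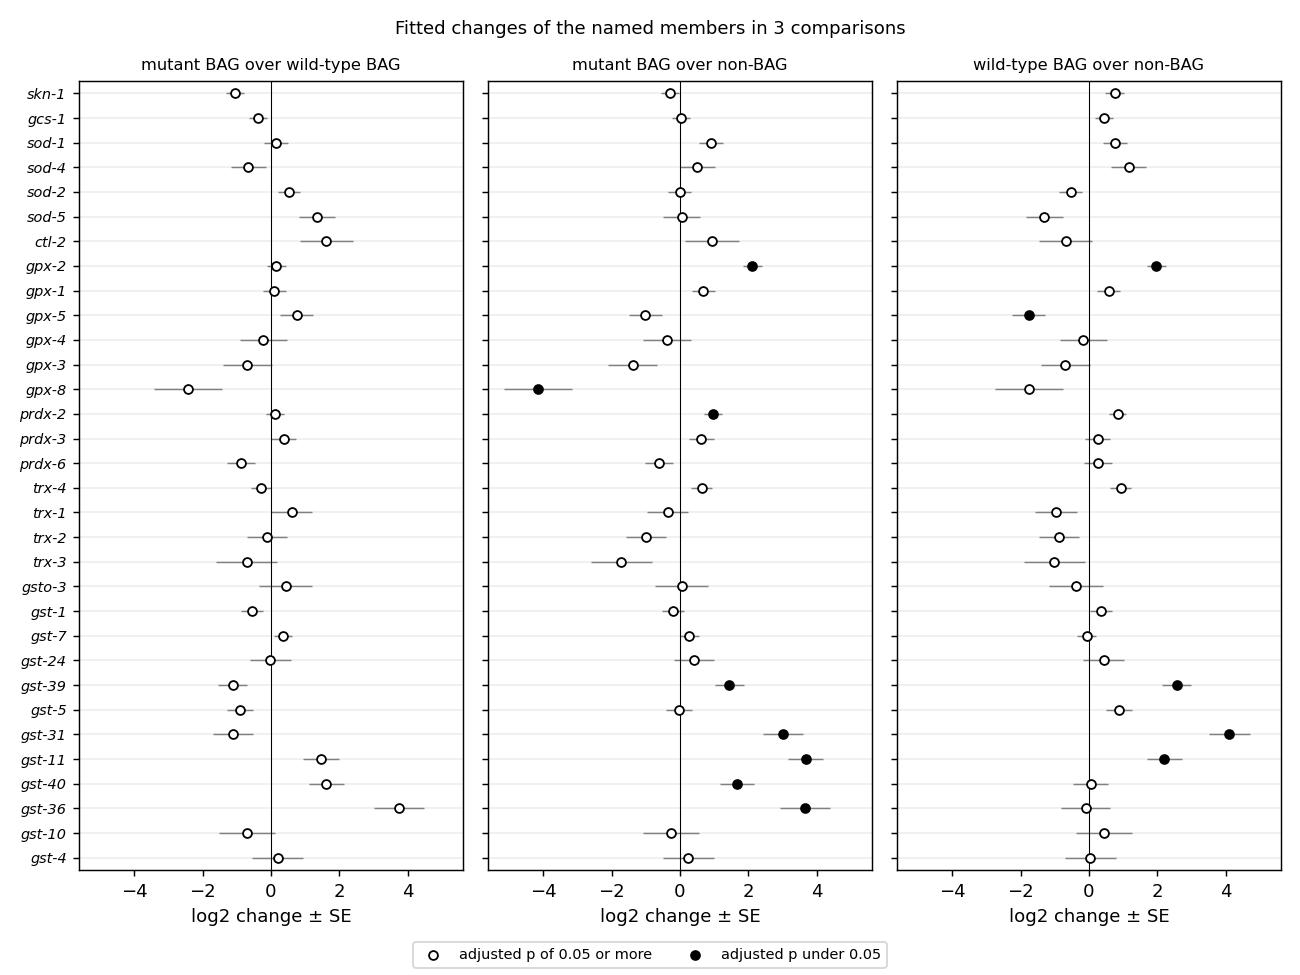
Log2 changes ± SE (x axis) of the 32 named members (rows) in mutant over wild-type BAG, mutant BAG over non-BAG and wild-type BAG over non-BAG; filled points have an adjusted p under 0.05. No point is filled in mutant over wild-type BAG, where gst-36 lies farthest right and gpx-8 farthest left.

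The 29 members that failed the filter had means over the 6 libraries of at most 5.93, among them sod-3, ctl-1, ctl-3, gpx-6, gpx-7, trx-5, gsto-1, gsto-2 and 21 of the gst genes. Members at 0 reads numbered 14 and 20 in mutant BAG, 8 and 8 in wild-type BAG and 13 and 3 in non-BAG. The shallowest library, non-BAG replicate 1, and the mutant libraries had the most zeros, and a count of 0 allows up to 3 reads, between 1.86 and 3.45 on the normalized scale. Per kilobase of exon, skn-1 stood highest in wild-type BAG neurons at 1819, followed by prdx-2 at 702, gst-1 at 598, sod-1 at 469, trx-4 at 464, gst-7 at 407 and gpx-2 at 374. In non-BAG cells the order began with skn-1 at 1081, gst-1 at 489.7, gst-7 at 426 and prdx-2 at 391.

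**Figure D2:**
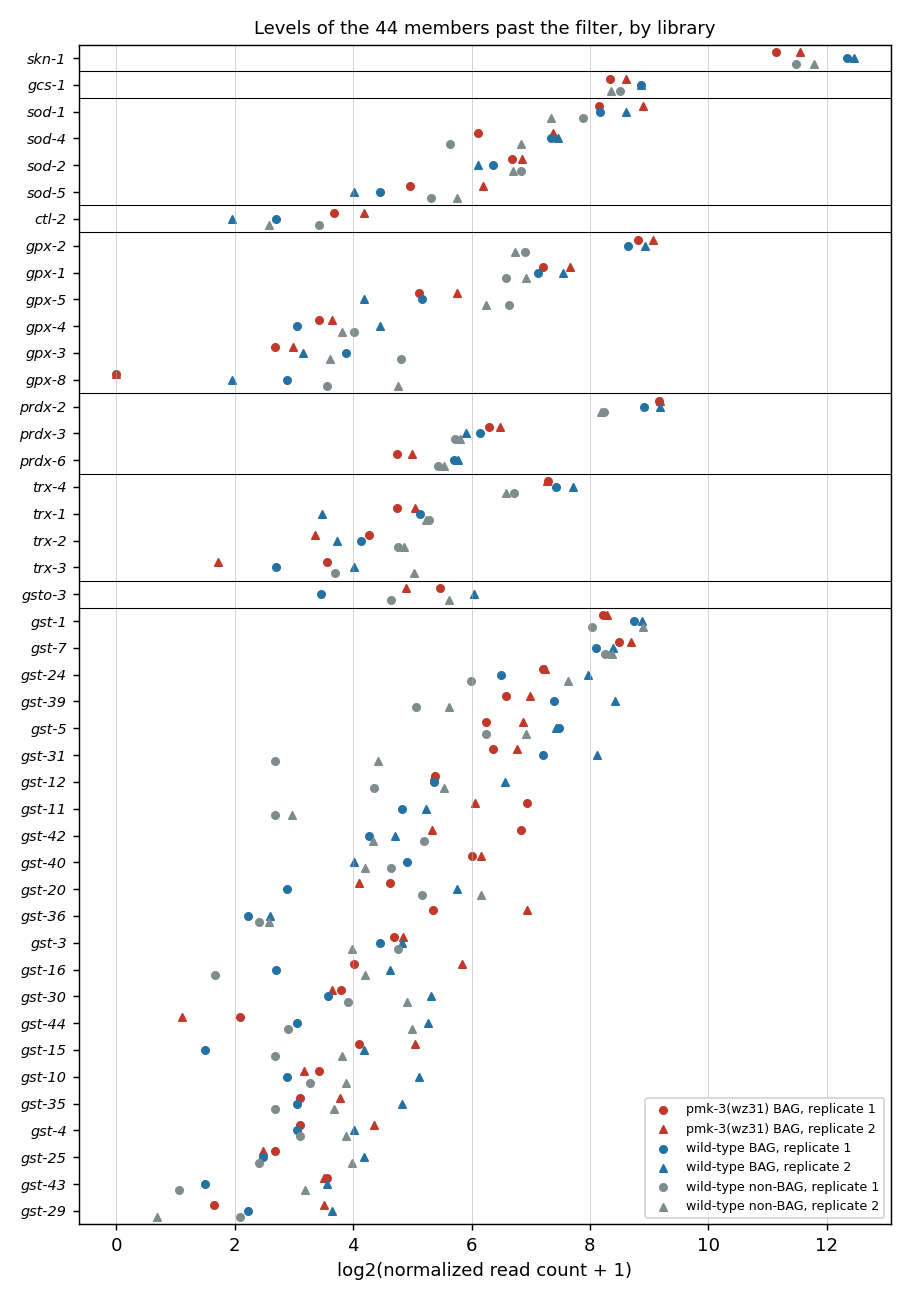
Level of each of the 44 members past the filter (rows, grouped by family) as log2(normalized read count + 1) on the x axis, with 1 point per library; colour gives the group and shape the replicate. The blue points of skn-1 lie right of all its other points, and the replicate 2 triangles of many gst genes lie right of the circles in the wild-type groups.

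The regulator gene skn-1 (WBGene00004804) was the most abundant member in every library. It stood at 2247 and 3005 in mutant BAG, 5159 and 5609 in wild-type BAG and 2866 and 3534 in non-BAG. Both wild-type BAG libraries lay above the other 4, and the mutant and non-BAG ranges overlapped. The value of mutant over wild-type BAG was -1.05 ± 0.27 (limma adjusted p = 0.109), or a mean of 2626 ± 536 against 5384 ± 318 (SD, n = 2 each). It did not pass by edgeR (adjusted p = 0.156) and passed by DESeq2 (adjusted p = 0.0291), and by limma without non-BAG replicate 1 or non-BAG replicate 2 (adjusted p = 0.0452 and 0.0416) and with only the 2 groups compared in the fit (0.0336). Over all alternatives its adjusted p ran between 0.0291 and 0.537. Wild-type BAG over non-BAG gave 0.76 ± 0.27 (limma adjusted p = 0.103), and mutant BAG over non-BAG gave -0.29 ± 0.27 (limma adjusted p = 0.465). In the same libraries the share of reads from ribosomal RNA genes was 14.1% and 14.3% in mutant BAG, 11.5% and 10.4% in wild-type BAG and 14.95% and 10.5% in non-BAG; its part in the skn-1 values was not tested.

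The glutathione synthesis gene gcs-1 (WBGene00001527) had 322 and 389 in mutant BAG, 466 and 463 in wild-type BAG and 363 and 325 in non-BAG. Both wild-type BAG libraries were the highest here too, while the mutant and non-BAG ranges overlapped. The value of mutant over wild-type BAG, -0.39 ± 0.26 (limma adjusted p = 0.512), did not pass. By the correlation of log2(value + 1) over the 6 libraries, the members most like skn-1 were gst-5 (r = 0.94), prdx-6 (r = 0.89) and gcs-1 (r = 0.86); the 6 points are 3 groups of 2, so r mostly restates the differences between groups.

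The other classical SKN-1 targets were barely detected. The transferase gene gst-4, whose reporter is the usual readout of SKN-1, had 7.55 and 19.5 in mutant BAG, 7.31 and 15.1 in wild-type BAG and 7.58 and 13.6 in non-BAG. All 3 groups overlapped, and it shares exon sequence with the more abundant dhs-12 on the same strand, so its level is uncertain. For gst-10 the values were 9.7 and 8.05 in mutant BAG, 6.4 and 33.8 in wild-type BAG and 8.66 and 13.6 in non-BAG. These groups overlapped too, and the limma adjusted p of gst-4 and gst-10 lay between 0.727 and 0.977 in the 3 comparisons.

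**Figure D3:**
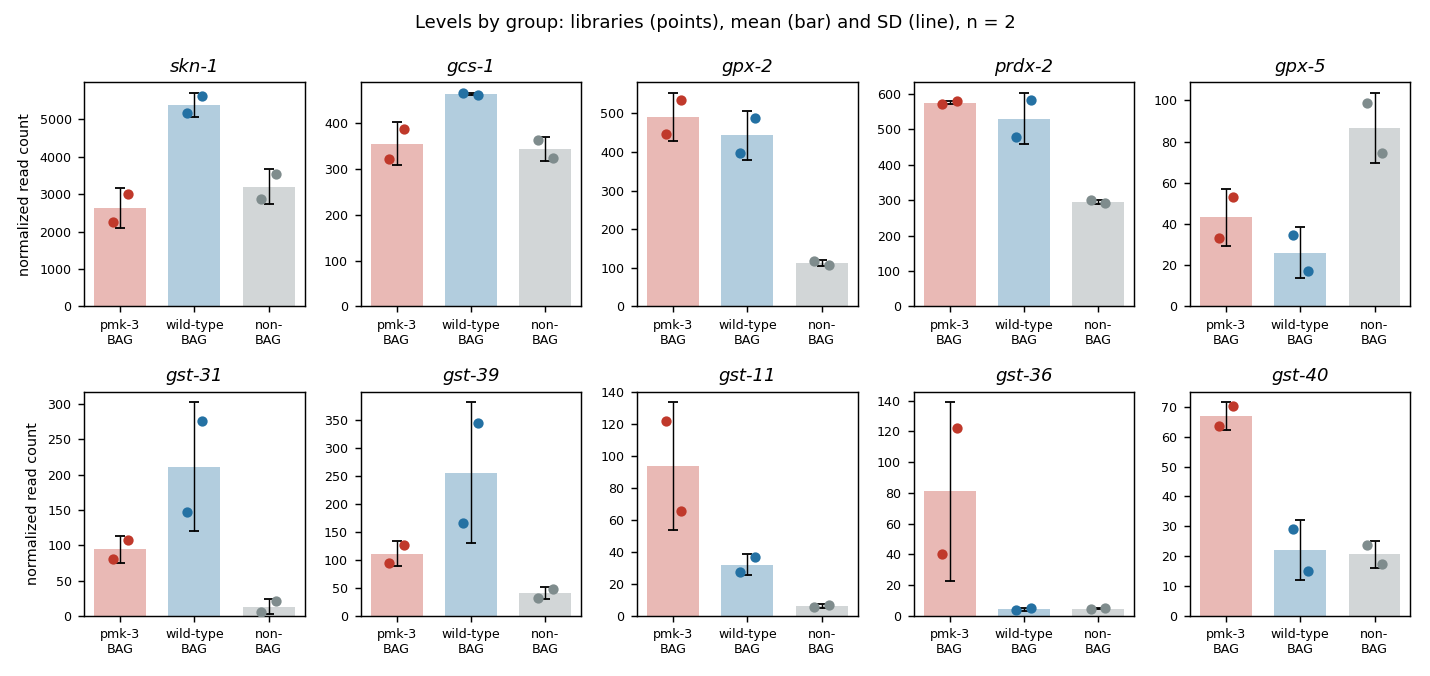
Normalized read counts (y axis, from 0, a scale for each gene) of 10 members in mutant BAG, wild-type BAG and non-BAG; points are libraries, bars the mean and lines the SD of 2. For gst-31 and gst-39 the wild-type BAG points are the highest, and for gst-11, gst-36 and gst-40 the mutant BAG points are.

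Among superoxide dismutases, sod-1, the main cytosolic copper and zinc enzyme, was the most abundant. It stood at 285 and 477 in mutant BAG, 287 and 389 in wild-type BAG and 234.99 and 162 in non-BAG. The 4 BAG libraries lay above both non-BAG libraries, with changes of 0.91 ± 0.35 for mutant BAG over non-BAG and 0.77 ± 0.35 for wild-type BAG over non-BAG (limma adjusted p = 0.0856 and 0.187). The extracellular enzyme gene sod-4 had 67.9 and 166 in mutant BAG, 161 and 176 in wild-type BAG and 48.7 and 113 in non-BAG. Its value in wild-type BAG over non-BAG, 1.17 ± 0.51 (limma adjusted p = 0.169), passed without non-BAG replicate 2 (1.77, limma adjusted p = 0.0433). The mitochondrial manganese enzyme gene sod-2 had 101 and 115 in mutant BAG, 81.3 and 68.2 in wild-type BAG and 114 and 104 in non-BAG. Wild-type BAG was the lowest group for sod-2, as it was for sod-5, a minor cytosolic enzyme gene, at 30.2 and 72.4 in mutant BAG, 21.01 and 15.1 in wild-type BAG and 38.98 and 52.7 in non-BAG. Neither passed in any comparison; the nearest were sod-5 in wild-type BAG over non-BAG, at -1.3 ± 0.53 (limma adjusted p = 0.146), and in mutant over wild-type BAG, at 1.35 ± 0.53 (limma adjusted p = 0.261). The stress-inducible sod-3 stayed between 2.16 and 5.48 in all 6 libraries. Exons of sod-4 and sod-2 overlap those of ctr-9 and dpt-1, which lie on the other strand and were more abundant. Whether the counting used strand is not stated, so both levels are uncertain.

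Catalase transcripts were near the limit of detection. The peroxisomal enzyme gene ctl-2 had 11.9 and 17.2 in mutant BAG, 5.48 and 2.87 in wild-type BAG and 9.75 and 4.96 in non-BAG. Both mutant libraries were above the other 4, with a value of 1.61 ± 0.78 over wild-type BAG (limma adjusted p = 0.349). That is 11 and 15 reads in mutant BAG, 6 and 4 in wild-type BAG and 9 and 8 in non-BAG. The gene passed the filter only through mutant BAG, the group where it is high, and with no filter the limma adjusted p was 0.537. The neighbouring ctl-3 had 8.62 and 12.6 in mutant BAG, 0.914 and 1.44 in wild-type BAG and 4.33 and 1.24 in non-BAG, and did not reach the filter. The third gene of this run, ctl-1, had a single read, in wild-type BAG. The ctl genes are close copies of each other, and ctl-2 overlaps the more abundant Y54G11A.7 on the other strand, so their single values are uncertain.

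Among glutathione peroxidases gpx-2 stood apart. Its transcript (WBGene00011045) had 447 and 535 in mutant BAG and 398 and 488 in wild-type BAG, against 118 and 106 in non-BAG. The BAG groups overlapped each other and both lay well above the non-BAG libraries. It rose by 1.97 ± 0.28 in wild-type BAG over non-BAG and by 2.12 ± 0.28 in mutant BAG over non-BAG (limma adjusted p = 0.00147 and 0.000617). Both calls held under all 18 alternatives run, with an adjusted p of at most 0.0212. Between mutant and wild-type BAG the value was 0.15 ± 0.28 (limma adjusted p = 0.838). The related gpx-1 had 147 and 202 in mutant BAG, 138 and 187 in wild-type BAG and 95.3 and 120.3 in non-BAG. It did not pass in any comparison, and it shares exon sequence with drsh-1, a more abundant gene of the opposite strand, which leaves its level uncertain.

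The peroxidase gene gpx-5 (WBGene00007516) went the other way. It had 33.4 and 52.9 in mutant BAG and 34.7 and 17.2 in wild-type BAG, against 98.5 and 74.4 in non-BAG. Every BAG library lay below both non-BAG libraries. It fell by 1.76 on the log2 scale in wild-type BAG over non-BAG (SE 0.49, limma adjusted p = 0.0398), while mutant BAG over non-BAG gave -1.01 ± 0.49 (limma adjusted p = 0.156). The call was lost without mutant BAG replicate 1, mutant BAG replicate 2, replicate 2 of wild-type BAG, non-BAG replicate 1 and non-BAG replicate 2 (limma adjusted p = 0.0728, 0.0772, 0.187, 0.146 and 0.0511), and with only the groups compared (0.0816). In the same comparison 7 of the 8 muscle markers and all 3 coelomocyte markers fell too, while 4.01% of all genes tested fell. Of the hypodermis, germline and intestine markers only 8, 6 and 3 were tested. They had 0 calls, with median changes of -0.76, -0.88 and -0.86, against -0.04 over all genes tested. The pharynx markers had 1 rise and a median of 0.93. The glia markers had 1 rise, 1 fall and a median of -0.21. The part of any of these cell types in the gpx-5 values was not tested. The neighbouring gpx-3 had 5.39 and 6.9 in mutant BAG, 13.7 and 7.9 in wild-type BAG and 27.1 and 11.2 in non-BAG, and did not pass in any comparison.

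No read of gpx-8 (WBGene00018850) was seen in either mutant library. It had 6.4 and 2.87 in wild-type BAG and 10.8 and 26.04 in non-BAG, from 7, 4, 10 and 42 reads. The order of the groups was the same in all libraries, with no overlap. It fell in mutant BAG over non-BAG (limma adjusted p = 0.0143). With 3 reads per library as the floor for the mutant, its mean there was at least 5.52-fold below the observed non-BAG mean of 18.4. That bound leaves out the spread of the non-BAG libraries. The gene passed the filter on low values only through non-BAG, the group where it is high; with no filter the limma adjusted p was 0.0149. The call was lost without mutant BAG replicate 1, mutant BAG replicate 2 and non-BAG replicate 2 (limma adjusted p = 0.054, 0.0619 and 0.157). It did not pass in mutant over wild-type BAG (limma adjusted p = 0.278). The remaining tested peroxidase gene, gpx-4, had 9.7 and 11.5 in mutant BAG, 7.31 and 20.8 in wild-type BAG and 15.2 and 13.02 in non-BAG, and did not pass in any comparison.

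The cytosolic peroxiredoxin gene prdx-2 (WBGene00006434) was high in both kinds of BAG neuron. It had 572 and 579.6 in mutant BAG and 479.6 and 582 in wild-type BAG, against 300.0 and 291 in non-BAG. The BAG libraries overlapped and all 4 were above the non-BAG libraries. It rose by 0.96 ± 0.26 in mutant BAG over non-BAG (limma adjusted p = 0.0236), a call lost without mutant BAG replicate 1, mutant BAG replicate 2 and non-BAG replicate 2 (limma adjusted p = 0.133, 0.149 and 0.0519). In wild-type BAG over non-BAG the value was 0.84 ± 0.26 (limma adjusted p = 0.0624); it passed with TMM scaling (limma adjusted p = 0.0327) and with a mean of at least 50 as the filter (0.0476). The mitochondrial prdx-3 had 77.6 and 88.5 in mutant BAG, 69.4 and 58.9 in wild-type BAG and 52.0 and 55.2 in non-BAG, and did not pass. The remaining family member, prdx-6, had its lowest values in the mutant, 25.9 and 31.05, against 51.2 and 53.9 in wild-type BAG, with 42.2 and 45.3 in non-BAG. The ranges of these 3 groups did not overlap, but -0.87 ± 0.41 in mutant over wild-type BAG did not pass (limma adjusted p = 0.343).

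Of the thioredoxins, trx-4 was the most abundant, at 155 and 154 in mutant BAG, 171 and 209.7 in wild-type BAG and 104 and 94.8 in non-BAG. All BAG libraries lay above both non-BAG libraries, with 0.92 ± 0.30 in wild-type BAG over non-BAG (limma adjusted p = 0.0762). That value passed with TMM scaling (limma adjusted p = 0.0455) and with a mean of at least 50 as the filter (limma adjusted p = 0.0489). The gene trx-1, known from the ASJ sensory neurons, had 25.9 and 32.2 in mutant BAG, 33.8 and 10.1 in wild-type BAG and 37.9 and 36.6 in non-BAG. Here BAG neurons were not above the mixture of other cells. The mitochondrial trx-2 had 18.3 and 9.2 in mutant BAG, 16.4 and 12.2 in wild-type BAG and 25.99 and 27.9 in non-BAG. For trx-3 the values were 10.8 and 2.3 in mutant BAG, 5.48 and 15.1 in wild-type BAG and 11.9 and 31.6 in non-BAG. None of the 4 passed in any comparison, and trx-1, trx-2 and trx-3 each share exon sequence with a more abundant gene on the other strand (cpna-2, asps-1 and gbb-2), so their levels are uncertain.

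The transferase genes with the largest rise in wild-type BAG over non-BAG were the neighbours gst-31 (WBGene00001779) and gst-39 (WBGene00001787). The first had 80.8 and 108 in mutant BAG and 147 and 276 in wild-type BAG, against 5.41 and 20.5 in non-BAG. For gst-39 the values were 94.9 and 126 in mutant BAG and 166 and 344 in wild-type BAG, against 32.5 and 48.4 in non-BAG. In both genes the 3 groups did not overlap, with wild-type BAG the highest and non-BAG the lowest. In wild-type BAG over non-BAG gst-31 rose by 4.11 ± 0.59 and gst-39 by 2.56 ± 0.43 (limma adjusted p = 0.00151 and 0.00368), and both calls held under all 18 alternatives run. In mutant BAG over non-BAG they rose by 3.01 ± 0.59 and 1.44 ± 0.43 (limma adjusted p = 0.00535 and 0.0352). The call of gst-31 there was lost without mutant BAG replicate 2 (limma adjusted p = 0.0712), and that of gst-39 without mutant BAG replicate 1, mutant BAG replicate 2 and non-BAG replicate 1 (limma adjusted p = 0.107, 0.219 and 0.114). Between mutant and wild-type BAG the values were -1.1 ± 0.59 and -1.12 ± 0.43 and did not pass (limma adjusted p = 0.398 and 0.247).

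These genes lie in a run of 9 related genes, gst-26, gst-27, gst-28, gst-29, gst-39, gst-31, gst-32, gst-34 and gst-35, with at most 2 other protein-coding genes between neighbours in the reference annotation. The rest of the run had low levels, and of it only gst-29 and gst-35 passed the filter. The highest mean among them was that of gst-35, at 7.55 and 12.6 in mutant BAG, 7.31 and 27.3 in wild-type BAG and 5.41 and 11.8 in non-BAG. How reads that fit several copies were counted is not stated, so the split between such neighbours is uncertain. A second run of 9 genes, gst-20, gst-24, gst-15, gst-14, gst-12, gst-16, gst-19, gst-17 and gst-18, did not share the pattern. Its summed level was 245 and 297 in mutant BAG, 144 and 454 in wild-type BAG and 128 and 348 in non-BAG, and most of the spread lay between libraries of the same group.

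The values of gst-36 (WBGene00001784) were 39.9 and 121.9 in mutant BAG, 3.65 and 5.03 in wild-type BAG and 4.33 and 4.96 in non-BAG. That is 37 and 106 reads in the mutant libraries against 4 and 7 in wild-type BAG and 4 and 8 in non-BAG, so both mutant libraries lay far above the other 4, though the mutant libraries themselves differed widely. Mutant over wild-type BAG gave 3.74 ± 0.72, just short of the threshold by limma (adjusted p = 0.0519). It passed by edgeR (adjusted p = 0.0305) and DESeq2 (adjusted p = 7.31e-05), and by limma with a pseudocount of 8 (0.0374), with only the 2 groups compared (0.0115) and without non-BAG replicate 1 or non-BAG replicate 2 (0.0256 and 0.0205). Over all alternatives its adjusted p ran between 7.31e-05 and 0.533. The gene passed the filter on low values only through mutant BAG, the group where it is high, so these passes are no independent support; with no filter the limma adjusted p was 0.0753. Against non-BAG cells it rose by 3.65 ± 0.72 (limma adjusted p = 0.00561), a call lost without mutant BAG replicate 2 (limma adjusted p = 0.0994). The opposite-strand neighbour scav-5, which shares 93 bases of exon, stood at 4.43% of the level of gst-36. Of the pan-neuronal markers 1 of 8 rose in mutant over wild-type BAG and none fell. Over all genes tested 0.486% rose and 0.352% fell. The sums given above differ largely through egl-3, at 21802 and 31346 in mutant BAG against 7889 and 7104 in wild-type BAG. For snb-1 and unc-31 both mutant libraries lay below both wild-type BAG libraries. The part of these markers in the gst-36 values was not tested.

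The transferase gene gst-11 (WBGene00001759) was highest in mutant BAG and lowest in non-BAG. It had 121.8 and 65.5 in mutant BAG, 27.4 and 36.6 in wild-type BAG and 5.41 and 6.82 in non-BAG. None of the groups overlapped. It rose by 3.67 ± 0.52 in mutant BAG over non-BAG (limma adjusted p = 0.000913), a call that held under all 17 alternatives that tested it. In wild-type BAG over non-BAG it rose by 2.21 ± 0.52 (limma adjusted p = 0.02), a call lost without mutant BAG replicate 1, either library of wild-type BAG and non-BAG replicate 1 (limma adjusted p = 0.0512, 0.0605, 0.104 and 0.0547). Mutant over wild-type BAG gave 1.47 ± 0.52 (limma adjusted p = 0.21).

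For gst-40 (WBGene00001788) only the mutant libraries were high, at 63.6 and 70.1 in mutant BAG, 29.2 and 15.1 in wild-type BAG and 23.8 and 17.4 in non-BAG. The wild-type groups overlapped. It rose by 1.67 ± 0.50 in mutant BAG over non-BAG (limma adjusted p = 0.0367), a call lost without mutant BAG replicate 1, mutant BAG replicate 2, non-BAG replicate 1 and non-BAG replicate 2 (limma adjusted p = 0.147, 0.191, 0.0501 and 0.109). The value over wild-type BAG, 1.62 ± 0.50, did not pass (limma adjusted p = 0.162). The gene gst-42, which encodes the worm maleylacetoacetate isomerase of tyrosine breakdown, also had its highest values in the mutant, 113 and 39.1, against 18.3 and 25.1 in wild-type BAG, with 35.7 and 19.2 in non-BAG. It did not pass in any comparison.

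The transferase genes with the highest levels did not pass in any comparison, apart from gst-31 and gst-39 above. For gst-1 the values were 296 and 310.5 in mutant BAG, 428 and 468 in wild-type BAG and 259.9 and 474 in non-BAG. The next, gst-7, had 359 and 412 in mutant BAG, 274 and 333 in wild-type BAG and 303 and 331 in non-BAG. Together gst-1 and gst-7 held between 32.9% and 57.9% of the gst signal per kilobase in the 6 libraries, with the largest shares in non-BAG. The level of gst-24 was 147 and 149 in mutant BAG, 89.5 and 249.9 in wild-type BAG and 62.8 and 196 in non-BAG, a spread within the wild-type groups that covered the mutant. For gst-5 the values were 74.4 and 116 in mutant BAG, 177 and 172 in wild-type BAG and 74.7 and 120.3 in non-BAG, with wild-type BAG the highest. The nearest of these 4 to the threshold was gst-5 in wild-type BAG over non-BAG, at 0.87 ± 0.38 (limma adjusted p = 0.164). The omega-class gsto-3 had 43.1 and 28.7 in mutant BAG, 10.0 and 64.6 in wild-type BAG and 23.8 and 48.4 in non-BAG, and likewise did not pass.

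Libraries of the same wild-type group differed from each other in most gst genes, in the same direction. In mutant BAG 14 of the 23 tested gst genes were higher in replicate 2 than in replicate 1, with a median difference of 0.14 on the log2 scale. In wild-type BAG this held for 21 of 23, with a median of 1.2, and in non-BAG cells for 19 of 23, with a median of 0.86. Over all genes tested the share higher in replicate 2 was 51.3% in mutant BAG, 50.1% in wild-type BAG and 48.3% in non-BAG. Among genes with a mean under 50, a range that holds 17 of the 23 gst genes, it was 48.1% in mutant BAG, 58% in wild-type BAG and 60.5% in non-BAG. The other 21 tested members had medians of 0.26 in mutant BAG, 0.07 in wild-type BAG and -0.04 in non-BAG. These are descriptions, with no test. The summed level of the gst family was 1614 and 1807 in mutant BAG, 1528 and 2407 in wild-type BAG and 987 and 1582 in non-BAG. The wild-type BAG range overlapped that of each other group, and both mutant BAG sums lay above both non-BAG sums. Both wild-type replicate 2 libraries were also the deepest of the 6, and the part of depth in this difference was not tested.

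**Figure D4:**
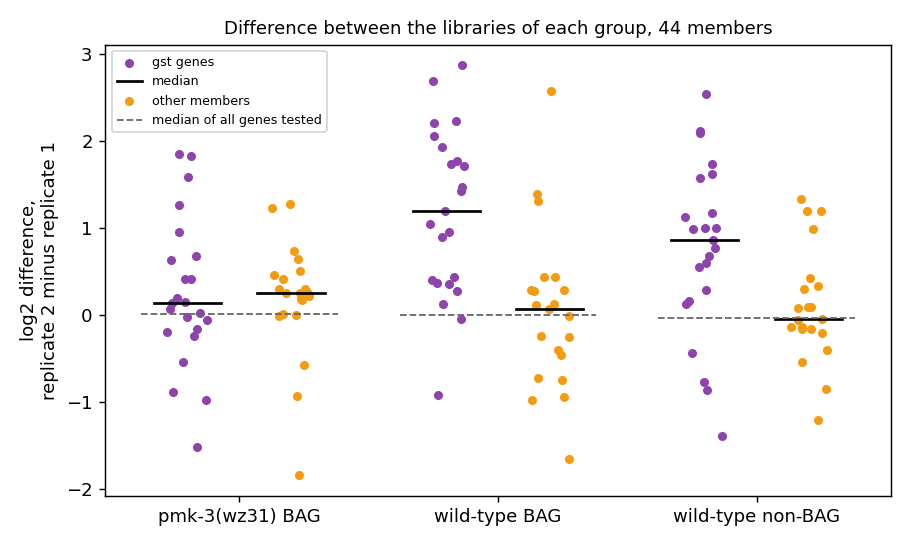
Difference between the libraries of each group, log2(value + 1) of replicate 2 minus that of replicate 1 (y axis), for the 23 tested gst genes (purple) and the 21 other tested members (orange); black lines are medians and dashed lines the median of all genes tested. The gst median lies at 0.14 in mutant BAG, 1.2 in wild-type BAG and 0.86 in non-BAG.

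Of 32 genes known to act on SKN-1 or beside it, all tested, 2 rose and 0 fell in wild-type BAG over non-BAG, where 10.2% of all genes tested rose and 4.01% fell. These were mdt-15, a Mediator subunit gene (2.62 ± 0.26, limma adjusted p = 0.000184), and the kinase gene akt-2 (1.73 ± 0.28, limma adjusted p = 0.00321). In mutant BAG over non-BAG 6 rose and 0 fell, led by mdt-15 (2.56 ± 0.26), akt-2 (2.45 ± 0.28), the insulin receptor gene daf-2 (1.34 ± 0.27) and the kinase gene nsy-1 (1.3 ± 0.38); over all genes tested 16.2% rose and 9.34% fell. Neither direction held a call in mutant over wild-type BAG by limma, where the unadjusted p was under 0.05 for 5 of the 32, and for 2261 of all 14211 genes tested. The counts of calls were near or below the share over all genes. The median changes in wild-type BAG over non-BAG, mutant over wild-type BAG and mutant BAG over non-BAG were 0.12, -0.09 and 0.14. Over all genes tested they were -0.04, 0.02 and -0.09.

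Of 40 other redox and glutathione genes 37 were tested. In wild-type BAG over non-BAG 3 rose, the mitochondrial thioredoxin reductase gene trxr-2 (1.6 ± 0.31), the cystathionine gamma-lyase gene cth-2 (1.13 ± 0.25) and the hypoxia factor gene hif-1 (1.86 ± 0.36). The cystathionine beta-synthase gene cbs-1 fell by 2.09 on the log2 scale. In mutant BAG over non-BAG 5 rose and 2 fell. Both comparisons stood near the shares over all genes tested, 10.2% and 4.01% in wild-type BAG over non-BAG and 16.2% and 9.34% in mutant BAG over non-BAG. Among the genes past the threshold, the largest changes were those of hif-1 (2.62 ± 0.36), trxr-2 (2.19 ± 0.31), the transhydrogenase gene nnt-1 (1.98 ± 0.44) and the phytochelatin synthase gene pcs-1 (-1.9 ± 0.44). In mutant over wild-type BAG 0 passed by limma and 9 of 37 had an unadjusted p under 0.05, against 2261 of all 14211 genes tested. The lowest adjusted p there, a gene chosen after its values were seen, was that of pcs-1, at 15.1 and 19.5 in mutant BAG against 55.7 and 51.7 in wild-type BAG (-1.59 ± 0.44, limma adjusted p = 0.125). The median changes of these genes were 0.11 in wild-type BAG over non-BAG, -0.24 in mutant over wild-type BAG and -0.09 in mutant BAG over non-BAG.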

How the data were processed

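RNA was sequenced from 6 libraries of sorted cells, 2 in each of 3 groups. The authors deposited 1 table of normalized counts, used here as a signal per gene and library. STAR, HTSeq and DESeq2 are listed, with no version or role, per the submitters' processing notes. The build, annotation and strand setting of the counting are not given in those sources, and coordinates are left out. In each library all values were a whole multiple of the value of 1 read (100.0% of values within 0.01 of a read), from which whole reads were recovered. A gene was tested if 2 or more libraries had a value of 10 or higher. The test was limma 3.58.1 in R 4.3.3 on log2(value + 1), with a mean-variance trend and 3 groups in 1 fit without the replicate block. Folds on this scale understate changes of low genes. Among the alternatives, the recovered reads were fitted with DESeq2 1.42.0 and with the quasi-likelihood test of edgeR 4.0.16. The scripts were tested on simulated data. All 73 members matched the Ensembl WBcel235 annotation by gene ID, which gave exon lengths, neighbours and overlaps and may differ from the authors'. Named with values are skn-1, members past the threshold, every tested member outside gst, gst-4, gst-10 and the 6 gst genes with the highest means; other gst genes are named as neighbours or examples, chosen after their values were seen. The members and lists were chosen with earlier results of these data known.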

Additional observations from a re-analysis of the deposited data

How the results depend on the processing

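Over 18 alternatives and the 32 members named by rule, 5 of the 13 calls held throughout, 6 values gained a call somewhere, and no value with a call in any setting changed sign; of 77 values with no call in any setting, 30 changed sign under an alternative. In mutant over wild-type BAG 1 member was higher, against 0, with a pseudocount of 8, the replicate block, only the groups compared, edgeR or DESeq2, and 1 was lower, against 0, with the replicate block, only the groups compared or DESeq2; leaving out a library gave 0 to 1 in either direction. In mutant BAG over non-BAG a mean of at least 50 gave 4 higher and 0 lower, against 7 and 1, as it drops gst-11, gst-36, gst-40 and gpx-8 from the test, and leaving out a library gave 2 to 7 and 0 to 1. In wild-type BAG over non-BAG the 1 fall was lost, leaving 0, with no filter, no trend or only the groups compared, and leaving out a library gave 3 to 5 higher and 0 to 1 lower. Where an alternative does not itself drop genes or libraries, the cause was not tested. TMM moved the median of all genes by 0.11 in wild-type BAG over non-BAG, and quantile scaling by -0.13 in mutant BAG over non-BAG. Deviations of same-numbered libraries correlated at 0.05 between mutant and wild-type BAG, 0.004 between mutant BAG and non-BAG and 0.46 between wild-type BAG and non-BAG. With only 2 numbers, and no label that ties a number to a shared culture or day, the number is not taken as a pairing; the deviations of the wild-type groups did move together. With the replicate block sod-4 and prdx-2 gained a call in wild-type BAG over non-BAG (adjusted p = 0.0426 and 0.0405), sod-1 and gst-16 in mutant BAG over non-BAG, and gst-36 and skn-1 in mutant over wild-type BAG (adjusted p = 0.0108 and 0.0391), where the count over all genes was 342 higher and 343 lower, against 69 and 50; DESeq2 gave 377 and 312 there, only the groups compared 374 and 282, edgeR 118 and 42, a pseudocount of 8 gave 148 and 73, no trend 0 and 1, no filter 46 higher, and leaving out a library 0 to 298 and 0 to 257. Over all genes the 1444 rises and 570 falls in wild-type BAG over non-BAG became 938 and 323 with only the groups compared, with 1011 falls under the replicate block, 367 with no trend and 266 to 760 with a library left out (872 to 1449 rises). The 2300 rises and 1328 falls in mutant BAG over non-BAG became 1070 to 2294 and 302 to 1361 with a library left out, with 1999 falls under the replicate block and 869 with no trend. Besides the libraries named above, calls were lost with no filter (gst-39, gst-40 and gpx-5), no trend (gst-39, prdx-2 and gpx-5), quantile scaling (gst-40), a minimum change of 1 (prdx-2) and only the groups compared (gst-11 in wild-type BAG over non-BAG, and gpx-5). Where 1 library of a group remained, its spread was taken from the other groups. Members under about 10 reads rest on too few reads to show a difference.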
